A study of Mus musculus with 17 samples.

Results

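Cells are sorted, and stem-like cells are sought, by proteins on their surface, and the RNA of 9 genes that encode such proteins is described here: Cd44, Cd24a, Epcam, Prom1, Ly6a, Thy1, Eng, Nt5e and Alcam. The genes were chosen by their use as sorting and stem cell markers, with earlier results of these data known, and all 9 were found among the 55450 genes of the bulk RNA-seq table. The cell lines came from organs of 10 female FVB/NJ MMTV-PyMT mice, aged 10 to 12 weeks, in which a mouse mammary tumor virus promoter drives the polyomavirus middle T oncogene in the mammary epithelium, so that every group, MFP included, carries the transgene. Tumors of the mammary fat pad (MFP, the primary site) and tissue of 3 metastatic sites, namely lymph node (LN), marrow of the bone (BM) and lung, were grown in culture for about 1 month and then sorted by the CD44 and EpCAM proteins into CD44low/EpCAMhigh and CD44high/EpCAMhigh cells. Bulk libraries numbered 14, with 2 for each of 7 groups: MFP, for which the labels give no CD44 status, and CD44low and CD44high cells of each of LN, BM and lung. Within a group, the libraries were distinct clonal isolates from different mice, so that each library stands for 1 isolate. For 3 of these groups (lung CD44high, lung CD44low and LN CD44high) there was also 1 single-cell library each.

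CD44 is the main receptor for the matrix glycan hyaluronan, and CD24 is a small, heavily glycosylated protein held in the membrane by a lipid (GPI) anchor. In human breast cancer, cells with much CD44 and little CD24 have long been used as a stem-like fraction, and EpCAM, an epithelial adhesion molecule, separates epithelial cells from stroma. Prom1 encodes CD133, a protein of membrane protrusions that marks stem and progenitor cells in several tissues, and Ly6a encodes Sca-1, a GPI-anchored marker of mouse stem cells and of some mammary luminal cells. Thy1 (CD90), Eng (CD105) and Nt5e (CD73) are the classical trio by which mesenchymal stromal cells are recognized, and Alcam (CD166) is an adhesion molecule of the immunoglobulin family found on the same cells and on many epithelia.

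In bulk RNA-seq, the RNA of the 2 proteins used for the sort did not follow the labels in every group. No higher Cd44 RNA was detected in the libraries labelled CD44high than in those labelled CD44low, in any of the 3 organs or over all 3. Epcam RNA was near 0 in all 4 lung libraries, although these too were labelled EpCAMhigh. The groups keep the names of the labels below, and these names say nothing of the RNA level.

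The genes lie on 7 chromosomes of mm10, all protein-coding in the GENCODE vM21 annotation. Cd44 (ENSMUSG00000005087.17) spans chromosome 2 from 102811141 to 102901665, and Eng (ENSMUSG00000026814.16) the same chromosome from 32646595 to 32682669. Thy1 (ENSMUSG00000032011.5) lies on chromosome 9 from 44043384 to 44048579, and Nt5e (ENSMUSG00000032420.8) on chromosome 9 from 88327197 to 88372092. Cd24a (ENSMUSG00000047139.9) lies on chromosome 10 from 43578284 to 43584265, Epcam (ENSMUSG00000045394.9) on chromosome 17 from 87635979 to 87651129, and Prom1 (ENSMUSG00000029086.15) on chromosome 5 from 43993620 to 44102032. Ly6a (ENSMUSG00000075602.10) lies on chromosome 15 from 74994877 to 74998031, and Alcam (ENSMUSG00000022636.13) on chromosome 16 from 52248996 to 52454074. Eng overlaps Fpgs on the opposite strand (8.93 to 32.0 TPM over the libraries), and no strand setting is stated, so reads of the shared part could not be told apart. Ly6a belongs to a family of closely related neighbouring genes, among which shared reads may have been divided.

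Promoters of the members that moved together in lung are shown from RefSeq on GRCm38.p6, the assembly of mm10, as the 250 bases before and 50 after the annotated start, written 5′ to 3′ on the gene's strand. The table used held entries for 6 of the 9 members: Cd44, Epcam, Prom1, Eng, Nt5e and Alcam. Of these, Cd44, Epcam, Prom1 and Alcam were called lower than MFP in both lung groups, and Eng was called higher in both. Capitals mark matches, on either strand, to 3 motifs of 6 letters: CAGGTG (which reads CACCTG on the other strand), then GGGCGG (or CCGCCC), then TATAAA (or TTTATA). The strand is minus for Cd44, Prom1 and Alcam and plus for Epcam and Eng.
Cd44, chr2:102901616-102901915: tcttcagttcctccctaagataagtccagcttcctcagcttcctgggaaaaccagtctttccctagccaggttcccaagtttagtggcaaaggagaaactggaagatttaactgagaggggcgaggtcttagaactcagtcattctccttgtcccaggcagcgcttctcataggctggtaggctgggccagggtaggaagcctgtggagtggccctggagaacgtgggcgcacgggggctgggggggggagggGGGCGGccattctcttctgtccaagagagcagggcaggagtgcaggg
Epcam, chr17:87635729-87636028: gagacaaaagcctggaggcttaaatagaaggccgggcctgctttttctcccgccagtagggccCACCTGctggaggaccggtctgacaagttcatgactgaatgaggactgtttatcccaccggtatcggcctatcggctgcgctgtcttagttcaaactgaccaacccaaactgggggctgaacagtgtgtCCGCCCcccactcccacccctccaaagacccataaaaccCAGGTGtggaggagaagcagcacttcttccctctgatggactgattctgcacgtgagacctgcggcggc
Prom1, chr5:44101687-44101986: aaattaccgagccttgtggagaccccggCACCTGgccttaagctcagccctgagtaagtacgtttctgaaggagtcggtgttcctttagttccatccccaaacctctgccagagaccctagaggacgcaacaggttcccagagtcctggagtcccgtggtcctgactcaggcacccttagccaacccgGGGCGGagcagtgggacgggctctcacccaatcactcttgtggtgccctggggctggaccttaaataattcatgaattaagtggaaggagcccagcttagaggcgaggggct
Alcam, chr16:52453032-52453331: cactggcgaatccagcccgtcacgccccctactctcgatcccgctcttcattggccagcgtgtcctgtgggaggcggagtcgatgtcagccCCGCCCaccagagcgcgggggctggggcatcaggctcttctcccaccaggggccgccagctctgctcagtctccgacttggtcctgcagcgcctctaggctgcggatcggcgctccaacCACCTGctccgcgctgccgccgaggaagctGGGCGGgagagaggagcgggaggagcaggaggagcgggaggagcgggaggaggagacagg
Eng, chr2:32646345-32646644: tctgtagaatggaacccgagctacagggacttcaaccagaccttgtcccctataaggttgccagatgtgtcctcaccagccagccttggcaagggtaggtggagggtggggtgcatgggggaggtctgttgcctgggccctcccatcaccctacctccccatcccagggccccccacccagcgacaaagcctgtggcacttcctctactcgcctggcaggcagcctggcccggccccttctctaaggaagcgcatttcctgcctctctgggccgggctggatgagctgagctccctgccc
The letters CACCTG begin 187 bases before the Epcam start, with CAGGTG 19 bases before it, and CACCTG stands 222 bases before the Prom1 start and 40 before the Alcam start. The motif CAGGTG was found, on either strand, in none of the entries of Cd44, Eng and Nt5e, nor in a further Prom1 entry, and 20.2% of all 32851 promoters in the table hold it. The motif GGGCGG was found in the shown promoters of Cd44, Epcam, Prom1 and Alcam, in that of Nt5e (4 matches, neighbours of which share letters) and in 35.7% of all. TATAAA was found in no member's entry and in 13.6% of all. These matches are descriptions of the letters and say nothing of binding.

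Values are in TPM, a gene's reads per transcript length scaled to the same total in every library, given for both libraries of a group with replicate 1 first. A gene was tested if 2 or more libraries had 1 TPM or more of it, which left 15348 genes, by limma on log2(TPM + 1), and differences below are on that scale, which understates the change of genes near 0. A gene was called when its log2 difference exceeded 2 in size and its adjusted p (Benjamini-Hochberg, over all genes tested) was under 0.05. All 9 members passed the filter, Thy1 only through its lung CD44low libraries and Eng only through lung libraries, so that these 2 had to differ between groups to be tested at all. Genes of the further lists that passed only through the group where they were high carry the same limit. With 2 libraries against 2, exact permutation cannot give a p below 0.333, and the precision of single values is set by the number of libraries, since TPM keeps no record of depth (stated minimum, 10 M reads). Per library, 11508 to 13052 genes had at least 1 TPM. The second BM CD44low library stood apart from the other 3 BM libraries on the first principal component and is left out in turn where a result rests on it.

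Markers of cell types set the lung libraries apart. The summed level of 10 epithelial markers was 6522 to 7515 TPM in MFP and 1943 to 4000 TPM in LN and BM, but 15.8 and 86.8 TPM in lung CD44high and 2.43 and 2.61 TPM in lung CD44low libraries, where Krt8, Cdh1, Cldn4, Esrp1 and Elf3 were listed at 0. The sum of 10 fibroblast markers was 4768 and 5172 TPM in lung CD44low, led by Dcn, against 216 and 103 TPM in lung CD44high, 8.28 to 52.8 TPM in LN and BM and 0.50 to 1.31 TPM in MFP. Acta2, a smooth muscle and myofibroblast actin, carried most of the basal or myoepithelial list in lung CD44low, at a mean of 684 TPM. The sum of 7 cycling markers was 3.75 to 56.5 TPM in the 4 lung libraries against 477 to 4947 TPM in LN and BM. These lists moved with the lung differences below, and their part in them was not tested. In bulk RNA, fewer cells of a type and less RNA per cell cannot be told apart.

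**Figure D1:**
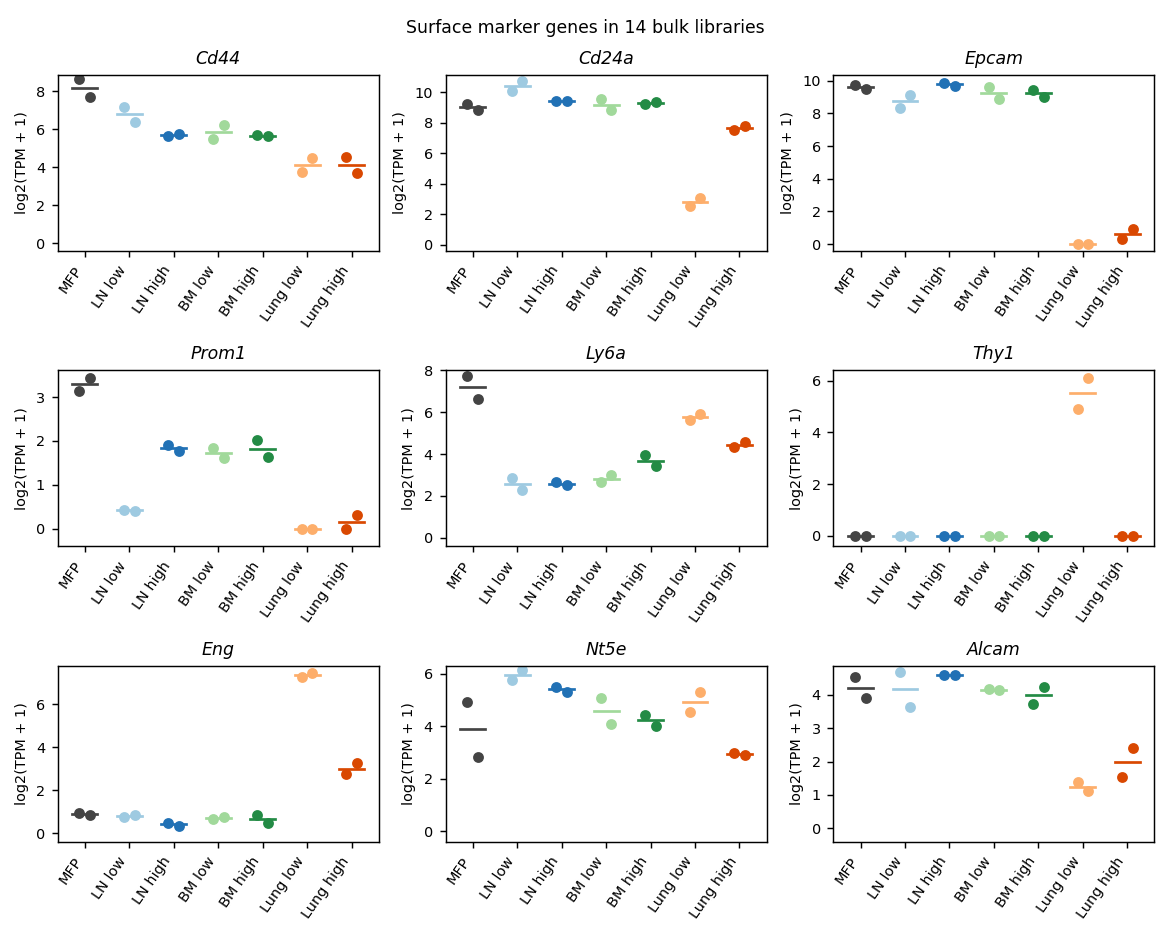
Level of each of the 9 genes in 14 bulk libraries, as log2(TPM + 1) on the vertical axis, with the 7 groups (low and high for CD44low and CD44high) on the horizontal axis. Points are libraries and lines are the mean of 2. Epcam falls to near 0 in all 4 lung libraries, Thy1 is above 0 in the 2 lung CD44low libraries alone, and Cd44 is highest in MFP.

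Cd44, the gene of the sorting protein, had 399.9 and 209.7 TPM in MFP. LN CD44low cells had 147 and 82.7 TPM and LN CD44high cells 49.0 and 52.3 TPM. BM CD44low cells had 43.8 and 74.9 TPM and BM CD44high cells 50.5 and 49.0 TPM. The MFP libraries were above all others and the 2 LN groups did not overlap, the CD44low libraries being the higher, while the 2 BM groups overlapped. In lung, CD44low cells had 12.2 and 21.6 TPM and CD44high cells 21.9 and 12.1 TPM, so that these were the lowest 4 libraries of the series and their groups overlapped almost fully.

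The CD44high minus CD44low difference of Cd44 was -1.11 in LN (standard error 0.44, adjusted p = 0.423), -0.20 in BM (standard error 0.44, adjusted p = 0.928) and 0.00 in lung (standard error 0.44, adjusted p = 1), by limma. Averaged over the 3 organs, it was -0.44, with an exact two-sided permutation p = 0.213 over the 216 arrangements of labels within organs, of which the smallest possible p is 0.00926. No rise of Cd44 RNA with the CD44high label was therefore detectable with 6 against 6 libraries. The BM difference changed sign, to 0.18, without the second BM CD44low library. The lung difference ranged from -0.40 without the first CD44high library to 0.41 without the second CD44high library.

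Against MFP, Cd44 was called lower in 5 of 6 groups. The log2 difference was -4.07 in both lung groups (standard error 0.44, adjusted p = 5.05e-05 in CD44low and 8.15e-05 in CD44high), -2.49 in LN CD44high (adjusted p = 0.00306), -2.52 in BM CD44high (adjusted p = 0.00255) and -2.32 in BM CD44low cells (adjusted p = 0.00445). In LN CD44low cells the difference was -1.39 (adjusted p = 0.0673) and was not called. With libraries scaled by the median ratio of their genes, which raised the median of all genes against MFP by 0.32 in LN CD44high and by 0.37 in BM CD44high, these 2 falls came to -1.96 and -1.95 and were no longer called. The BM CD44low fall was -1.94 without the first library of its own group and -1.85 without the first MFP library, neither called, and -2.70 without the second BM CD44low library. Lung against LN and BM together gave -1.89 (standard error 0.27, adjusted p = 0.000205), under the fold limit. It was called, at -2.17, with the scaling, at -2.08 without the second lung CD44low library and at -2.09 without the first lung CD44high library.

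Hyaluronan synthases, hyaluronidases and CD44 ligands, proteases and splicing factors formed a list of 23 genes, of which 19 were tested. In lung CD44low cells against MFP, 3 were called higher and 6 lower, with a median of -0.08 against 0.00 for all genes. Of all genes, 11.2% were called higher and 7.62% lower in that comparison, and the counts of the further lists are read beside the same shares. In lung CD44high against CD44low cells 1 was higher and 3 lower (2.49% and 8.80% of all genes). Cemip, a hyaluronan-degrading protein, had 341.9 and 415 TPM in lung CD44low and 0.03 TPM in both lung CD44high libraries. It passed the filter only through lung CD44low, with at most 0.33 TPM elsewhere, so nothing is read from its calls. Mmp14, a membrane protease that cleaves CD44, had 107 and 118 TPM in lung CD44low cells and was listed at 0 in both lung CD44high libraries. Ezr (ezrin), which ties CD44 to the actin skeleton, had 1.40 and 2.49 TPM in lung CD44low, 62.7 and 47.9 TPM in lung CD44high and 167 and 144 TPM in MFP, and rose by 4.27 from lung CD44low to CD44high (standard error 0.26, adjusted p = 1.04e-06). Hmmr, a further hyaluronan receptor used by dividing cells, was lower in lung than in LN and BM by 3.82 (-3.82, standard error 0.56, adjusted p = 0.000235). Esrp1, an epithelial splicing factor that acts on CD44 exons, was listed at 0 in all 4 lung libraries and had 7.61 to 36.0 TPM in LN and BM.

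Cd24a was low in lung CD44low cells and far higher in lung CD44high cells. It had 4.88 and 7.24 TPM in lung CD44low and 184 and 220.1 TPM in lung CD44high cells. MFP had 586 and 452 TPM, LN CD44low 1095 and 1711 TPM, and LN CD44high 693 and 673 TPM. BM CD44low cells had 739.7 and 444 TPM and BM CD44high cells 584 and 641 TPM. Both lung groups were below every other library, and the lung CD44low libraries were lowest of all. Cd24a fell by 6.21 from MFP to lung CD44low (standard error 0.30, adjusted p = 1.49e-07) and rose by 4.86 from lung CD44low to CD44high (standard error 0.30, adjusted p = 1.28e-06). In lung CD44high cells the difference from MFP was -1.35 (adjusted p = 0.00614), and in LN CD44low cells it was 1.41 (adjusted p = 0.0117), both under the fold limit. The CD44 difference of Cd24a in lung exceeded that in LN by 5.86 (standard error 0.43, adjusted p = 7.99e-06) and that in BM by 4.77 (adjusted p = 3.62e-05).

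The ratio of Cd44 to Cd24a TPM, the RNA counterpart of the CD44/CD24 profile, was 2.50 and 2.99 in the lung CD44low libraries. It was 0.119 and 0.0548 in lung CD44high, 0.682 and 0.464 in MFP and 0.0483 to 0.169 in the 8 LN and BM libraries. Only the 2 lung CD44low libraries of the 14 had more Cd44 than Cd24a RNA, with Cd44 itself in the range of the lung CD44high libraries.

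**Figure D2:**
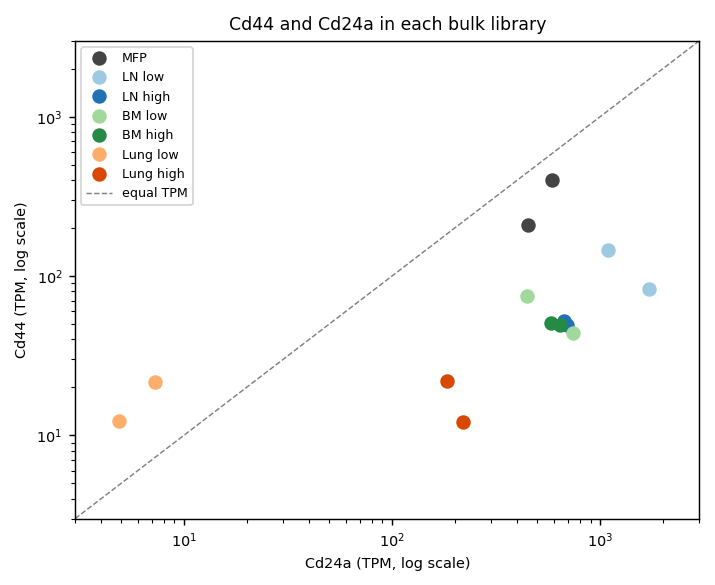
Cd44 (vertical axis) against Cd24a (horizontal axis) in each of 14 bulk libraries, both in TPM on log scales, coloured by group. The dashed line marks equal TPM, and the 2 lung CD44low libraries, at ratios of 2.50 and 2.99, are the only points above it.

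Epcam had 837 and 725 TPM in MFP, and in LN 315 and 567 TPM in CD44low and 941 and 820.1 TPM in CD44high cells. BM libraries had 794 and 464 TPM in CD44low and 700.2 and 519 TPM in CD44high cells. Those 10 libraries were all at or above 315 TPM, and each group overlapped the next in order of level. Lung CD44high libraries had 0.23 and 0.86 TPM, and both lung CD44low libraries were listed at 0. From MFP to lung CD44high the difference was -9.01 (standard error 0.34, adjusted p = 1.07e-07), and lung against LN and BM gave -8.95 (standard error 0.21, adjusted p = 2.14e-09). No fold is given for lung CD44low, although it was called. Within LN, Epcam was 1.05 higher in CD44high than CD44low cells without overlap (adjusted p = 0.321), which did not pass the test.

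Of 16 partners and proteases of EpCAM, 15 were tested, and in lung CD44low against MFP 7 were called lower and 1 higher, with a median of -1.91 against 0.00 for all genes. The list was low against MFP in the other groups too, with 5 called lower in each LN and BM group (medians -1.23 to -1.59, against -0.04 to -0.34 for all genes, of which 2.72% to 4.03% were called lower), where Epcam itself was not called. Lef1 was called higher in LN CD44high and both BM groups, and Tspan8 in both BM groups, where 2.44% to 3.99% of all genes were called higher. Claudin-7 (Cldn7), which binds EpCAM at cell junctions, had 428 and 321 TPM in MFP and at most 0.65 TPM in the other 12 libraries, so that it was low in every group outside MFP. The membrane protease St14 (matriptase) had 25.2 to 59.4 TPM in LN and BM and at most 0.11 TPM in lung, a difference of -5.26 (standard error 0.19, adjusted p = 1.71e-08). Its inhibitor Spint1 was listed at 0 in all 4 lung libraries. A further inhibitor, Spint2, had 7.52 and 6.57 TPM in lung CD44low and 186 and 154 TPM in lung CD44high cells, a rise of 4.41 (standard error 0.24, adjusted p = 5.58e-07). Fhl2, an adaptor that binds the cytoplasmic end of EpCAM, moved the other way, with 212 and 245 TPM in lung CD44low, 35.6 and 37.0 TPM in lung CD44high and 4.31 to 7.65 TPM in MFP.

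Prom1 was low throughout. It had 7.82 and 9.87 TPM in MFP, 2.07 to 3.07 TPM in LN CD44high and both BM groups, and 0.35 and 0.33 TPM in LN CD44low cells. Lung CD44low libraries were listed at 0, and lung CD44high libraries had 0 and 0.24 TPM. The MFP libraries stood above all others, and LN CD44low below the other LN and BM groups. The difference of Prom1 from MFP was -2.87 in LN CD44low (standard error 0.23, adjusted p = 2.98e-05) and -3.14 in lung CD44high cells (adjusted p = 6.41e-06), both called. Against MFP it was lower by less than the fold limit in the other LN and BM groups, with differences of -1.45 in LN CD44high, -1.56 in BM CD44low and -1.47 in BM CD44high cells (adjusted p = 0.00179, 0.00114 and 0.00152). Within LN it was 1.41 higher in CD44high cells (standard error 0.23, adjusted p = 0.0393), also under the fold limit.

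In MFP, Alcam stood at 22.1 and 13.9 TPM. It had 24.9 and 11.4 TPM in LN CD44low, 22.9 and 23.0 TPM in LN CD44high, 17.1 and 16.6 TPM in BM CD44low and 12.2 and 17.9 TPM in BM CD44high cells. Lung CD44low cells had 1.61 and 1.15 TPM and lung CD44high cells 1.93 and 4.29 TPM. The 5 groups outside lung overlapped one another in order of level, and all 4 lung libraries lay below them. The difference of Alcam from MFP was -2.97 in lung CD44low (standard error 0.41, adjusted p = 0.000287) and -2.23 in lung CD44high cells (standard error 0.41, adjusted p = 0.00217), and that of lung from LN and BM was -2.61 (standard error 0.25, adjusted p = 1.52e-05). Without the first lung CD44high or the first MFP library, the lung CD44high fall came to -1.81 or -1.92 and was not called. Among 21 adhesion relatives of ALCAM and prominin, 20 were tested, and in lung CD44low against MFP 2 were higher and 3 lower, with a median of -0.43 against 0.00 for all genes. Junctional adhesion molecule Jam3 rose in lung, with 28.6 and 34.2 TPM in CD44low and 29.5 and 31.5 TPM in CD44high cells against 0 to 4.90 TPM in LN and BM (difference 3.82, standard error 0.16, adjusted p = 4.17e-08). Cadm1, a synaptic and epithelial adhesion molecule, had 7.89 and 4.84 TPM in lung CD44low and 148 and 117 TPM in lung CD44high cells, a difference of 4.20 (adjusted p = 2.05e-05). Mcam (CD146) was lower in lung than in LN and BM by 4.40 (difference -4.40, standard error 0.31, adjusted p = 1.77e-06).

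Ly6a was highest in MFP, at 214 and 98.2 TPM. Lung CD44low cells had 47.9 and 60.0 TPM and lung CD44high cells 19.3 and 22.7 TPM. BM CD44high cells had 14.6 and 9.70 TPM and BM CD44low cells 5.28 and 6.90 TPM. LN cells had 6.24 and 3.89 TPM in CD44low and 5.30 and 4.80 TPM in CD44high. The 4 highest groups did not overlap, and the LN groups and BM CD44low overlapped at the bottom. Ly6a was called lower than MFP in 5 groups, with differences of -4.62 in LN CD44low, -4.59 in LN CD44high, -4.37 in BM CD44low, -3.50 in BM CD44high and -2.74 in lung CD44high cells (standard error 0.37 for each, largest adjusted p = 0.000348). The LN CD44low call was lost when only that group and MFP were fitted. In lung CD44low cells the difference from MFP was -1.42 (adjusted p = 0.0112). Ly6a rose by 2.19 from LN and BM to lung (standard error 0.23, adjusted p = 2.44e-05), and by 1.93, no longer called, with the median-ratio scaling, under which the median of all genes moved by -0.21. Lung CD44high was below lung CD44low by 1.32 (difference -1.32, standard error 0.37, adjusted p = 0.0235).

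Of 22 Ly6 family and GPI-anchored genes, 11 were tested, and in lung CD44low against MFP 2 were called higher and 5 lower, with a median of -1.06. Ly6e, the most abundant relative, had 3972 and 3250 TPM in MFP, 1226 to 3713 TPM in LN and BM, 240 and 183 TPM in lung CD44low and 24.4 and 18.5 TPM in lung CD44high cells, and its difference between lung and LN and BM was -5.02 (standard error 0.16, adjusted p = 8.38e-09). Lynx1, which binds nicotinic receptors, had 110.1 and 87.0 TPM in lung CD44low and 0.38 to 2.07 TPM in lung CD44high and MFP. Cd59a, an inhibitor of complement, was listed at 0 in MFP and had 25.2 and 28.3 TPM in lung CD44low cells. Plaur, the urokinase receptor, was lower in lung CD44high than CD44low by 3.69 (difference -3.69, standard error 0.29, adjusted p = 7.10e-06).

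Thy1 had 29.1 and 68.0 TPM in the lung CD44low libraries and was listed at 0 in the other 12. It was called against MFP (adjusted p = 4.14e-07), in lung CD44high against CD44low (adjusted p = 6.10e-07) and in lung against LN and BM, and no fold is given against groups at 0. Thy1 passed the filter only through the lung CD44low libraries, so nothing is read from these calls and p-values. T lymphocytes of the mouse also carry Thy1. Their markers Cd3e, Cd3d, Cd8a and Cd4 were listed at 0 in both lung CD44low libraries. The 8 lymphocyte markers summed to 0.20 and 0.12 TPM there, and the 10 fibroblast markers to 4768 and 5172 TPM. Which cells the Thy1 RNA came from was not tested.

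Eng, the TGF-beta and BMP co-receptor endoglin, had 153 and 174 TPM in lung CD44low and 5.73 and 8.51 TPM in lung CD44high cells. The other 10 libraries had 0.28 to 0.92 TPM. The lung groups were separate from each other and from the rest. Eng passed the filter only through lung libraries where it was high, so nothing is read from its calls and p-values that follow. Eng was higher than MFP by 6.47 in lung CD44low (standard error 0.26, adjusted p = 4.02e-08) and by 2.11 in lung CD44high (standard error 0.26, adjusted p = 0.000190), the latter 1.86 and not called without the second lung CD44high library. Lung CD44high was below CD44low by 4.36 (difference -4.36, adjusted p = 9.80e-07). This CD44 difference in lung lay 3.98 below that in LN (difference -3.98, adjusted p = 4.47e-05) and 4.30 below that in BM (difference -4.30, adjusted p = 2.72e-05). Endothelial cells also carry endoglin. The 8 endothelial markers summed to 0.23 and 0.17 TPM in lung CD44low, with Cdh5 and Emcn listed at 0, and the 10 fibroblast markers to 4768 and 5172 TPM. Which cells the Eng RNA came from was not tested.

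Among 23 ligands, receptors, Smads and targets of the endoglin pathway, 21 were tested. In lung CD44low against MFP, 8 were called higher and 0 lower, with a median of 1.32 against 0.00 for all genes, of which 11.2% were called higher and 7.62% lower, and in lung CD44high against CD44low 0 were higher and 6 lower, with a median of -0.56 (all genes, median -0.01, with 2.49% called higher and 8.80% lower). Tgfbr3 (betaglycan), the co-receptor most like endoglin, had 53.7 and 53.3 TPM in lung CD44low, 182 and 80.2 TPM in lung CD44high and 0.29 and 0.14 TPM in MFP, a rise of 5.49 to lung CD44low (standard error 0.59, adjusted p = 4.90e-05). The ligand gene Tgfb3 had 40.0 and 46.7 TPM in lung CD44low, 142 and 125 TPM in lung CD44high and 0.37 and 0.06 TPM in MFP, and rose by 5.20 (adjusted p = 2.59e-07). Acvrl1 (ALK1), the type I receptor that works with endoglin, had 4.35 and 5.60 TPM in lung CD44low and was listed at 0 in both lung CD44high libraries. Bmpr1a and Smad1, a receptor and a signal carrier of the BMP branch, were also among the 8. The BMP ligands that bind endoglin most tightly, Gdf2 and Bmp10, had at most 0.06 TPM in any library.

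**Figure D3:**
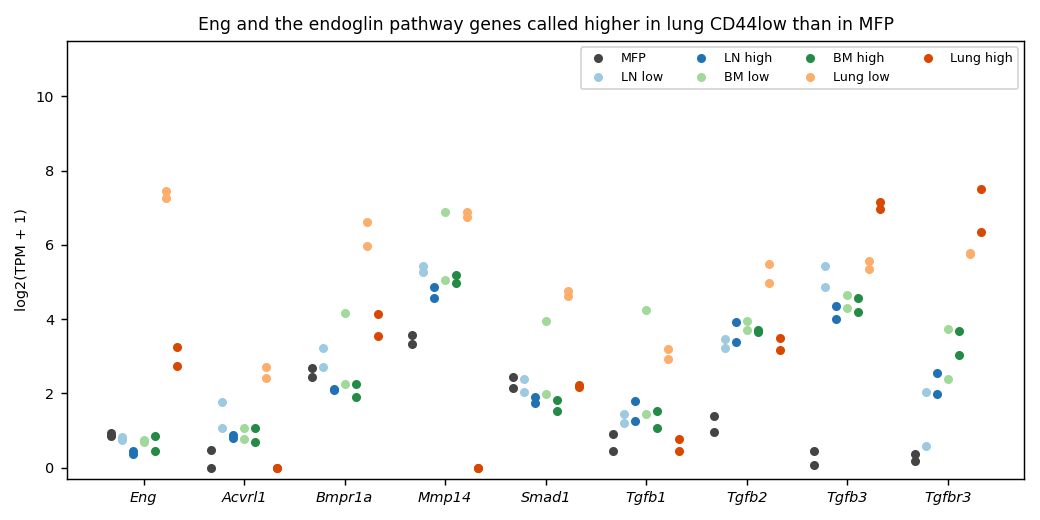
Eng and the 8 genes of its pathway list called higher in lung CD44low than in MFP (horizontal axis), each as log2(TPM + 1) in 14 libraries, with points coloured by group. Eng, Acvrl1 and Smad1 are highest in lung CD44low, whereas Tgfb3 and Tgfbr3 are higher in lung CD44high than in lung CD44low.

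Nt5e, which encodes CD73, the enzyme that makes adenosine from AMP outside the cell, was detected everywhere. It had 53.2 and 69.8 TPM in LN CD44low, 44.3 and 38.7 TPM in LN CD44high, 22.1 and 38.2 TPM in lung CD44low and 32.6 and 16.1 TPM in BM CD44low cells. MFP libraries were far apart, at 29.7 and 6.17 TPM, BM CD44high had 20.8 and 15.1 TPM, and lung CD44high had 6.91 and 6.52 TPM. LN libraries were above all others, and most groups in the middle overlapped. Nt5e was called higher than MFP in LN CD44low, by 2.06 (standard error 0.59, adjusted p = 0.0451), but in 11 of 14 fits without 1 library it was not, with 1.01 without the second MFP library. It was lower in lung CD44high than CD44low by 1.96 (difference -1.96, adjusted p = 0.0311), under the fold limit, and its groups did not overlap.

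In the pathway of extracellular adenosine, 16 of 21 genes were tested. From lung CD44low to CD44high, 0 were called higher and 4 lower, with a median of -1.20 against -0.01 for all genes, of which 2.49% were called higher and 8.80% lower. The 4 were Enpp1, which splits ATP, Entpd1 (CD39), which makes AMP from ATP, the ATP receptor P2rx7 and the ATP channel Panx1. Enpp1 had 30.2 and 26.6 TPM in lung CD44low, was listed at 0 in both lung CD44high libraries and had 44.1 to 116 TPM in BM. P2rx7 had 16.2 and 17.8 TPM in lung CD44low and was listed at 0 in lung CD44high. Entpd1 had 5.47 and 4.95 TPM in lung CD44low and at most 0.24 TPM in any other library. It passed the filter only through lung CD44low, so nothing is read from its calls. Against MFP, 3 genes were higher in lung CD44low and 1, Entpd3, lower, by 3.10 (difference -3.10, adjusted p = 5.23e-05).

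**Figure D4:**
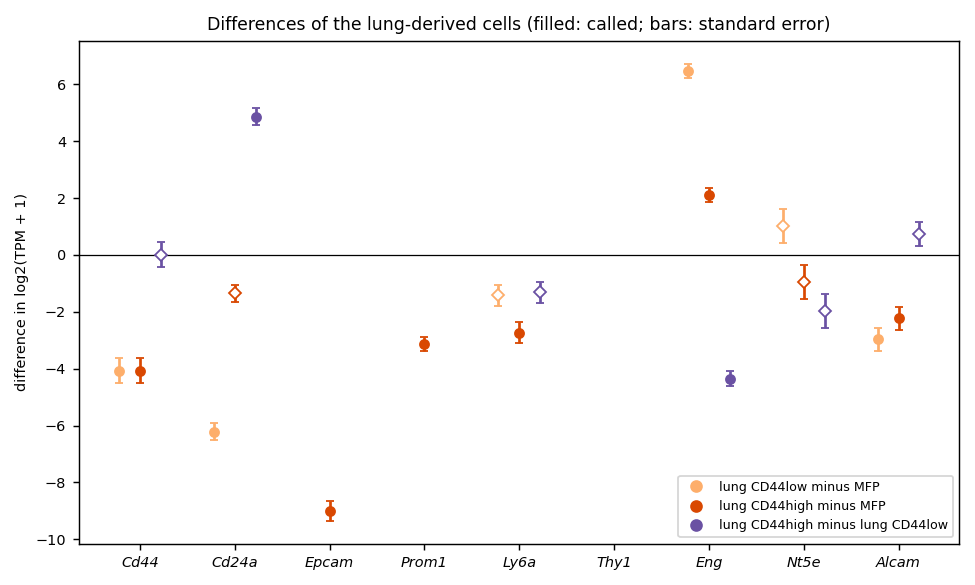
Differences in log2(TPM + 1) with standard errors for the 9 genes (horizontal axis) in 3 comparisons of lung cells, with filled circles for called and open diamonds for not called. Differences against a group listed at 0 are not drawn. Cd24a and Eng lie on opposite sides, at 4.86 and -4.36, between lung CD44high and CD44low cells.

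Over the 6 comparisons with MFP, 22 of 54 tests of members were called, and the share of all genes differed between comparisons. In LN CD44low, 1 member was higher, where 2.07% of all genes were called higher, and 2 were lower, where 2.72% were. In LN CD44high, BM CD44low and BM CD44high, 0 were higher (2.44%, 3.99% and 3.64% of all genes) and 2 each were lower, where 3.68%, 3.17% and 4.03% of all genes were lower; those 2 were Cd44 and Ly6a in each. In lung CD44low 2 were higher (11.2% of all genes) and 5 lower (7.62%), and the 2 higher were Thy1 and Eng. These passed the filter only through lung libraries where they were high, and nothing is read from their calls here or in the lung comparisons that follow. In lung CD44high 1 was higher (5.42%) and 5 lower (8.03%). These comparisons share the MFP libraries and are not independent. Between lung and the LN and BM libraries, 3 members (Ly6a and, by way of the filter, Thy1 and Eng) were higher, against 7.13% of all genes, and 3 lower, against 5.54%, and all 9 had an adjusted p under 0.05, where 35.9% of genes were higher and 24.0% lower at any fold. Lung CD44high against CD44low called 1 member higher (2.49% of all genes) and 2, again Thy1 and Eng, lower (8.80%).

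In LN and BM, no member was called between CD44high and CD44low cells. By limma, 0 members were called in LN (0.117% of all genes higher and 0.0912% lower) or in BM (0.0521% each way), with 4 members in LN and 1 in BM at an unadjusted p under 0.05, as were 1545 and 1136 of the 15348 genes. Over the 3 organs with organ as a term, 0 members and 0% of the 15348 genes were called in either direction, and 5 members and 3017 genes had an unadjusted p under 0.05. BM against LN called 0 members, where 0.345% of all genes were higher and 0.0521% lower, and 4 members and 1846 of the 15348 genes had an unadjusted p under 0.05. The CD44 difference in lung differed from that in LN for 3 members, 1 higher (3.39% of all genes) and 2 lower (7.0%), and from that in BM for 4, 1 higher (2.77%) and 3 lower (5.89%). Thy1 and Eng were among the lower in both, and as they were tested only for their lung libraries, nothing is read from those counts.

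The last lists bear on the stem cell and stromal uses of these genes. Of 22 mammary stem and progenitor sorting markers, 16 were tested, and in lung CD44low against MFP 5 were called higher and 4 lower, with a median of 0.07. Procr, a marker of multipotent mammary stem cells, had 45.2 and 36.4 TPM in lung CD44low and at most 0.30 TPM in lung CD44high and MFP, and rose by 5.22 against MFP (standard error 0.48, adjusted p = 1.64e-05). Itga6 (CD49f), the integrin of basal mammary cells, had 0.01 to 0.88 TPM in lung and 16.1 to 29.5 TPM in LN and BM, a difference of -4.23 (standard error 0.16, adjusted p = 2.09e-08). Cd200 was higher in lung, at 581 to 2359 TPM against 71.7 to 205 TPM in LN and BM, by 3.12 (adjusted p = 3.86e-06). Among 15 mesenchymal stromal markers beside Thy1, Eng, Nt5e and Alcam, 11 were tested, with 3 called higher and 2 lower in lung CD44low than in MFP and a median of 0.32, where 11.2% of all genes were higher and 7.62% lower. Pdgfrb, a receptor of pericytes and fibroblasts, had 47.3 and 79.4 TPM in lung CD44low, 5.92 and 2.09 TPM in lung CD44high and 0.02 and 0 TPM in MFP. Of 9 markers listed as absent from mesenchymal stromal cells, only Cd34 and Cd14 reached the filter. Cd34 had 46.2 and 52.1 TPM in lung CD44low and at most 0.05 TPM elsewhere. It passed the filter only through lung CD44low, so nothing is read from its calls. Cd14 was lower in lung CD44low than in MFP by 2.72 (difference -2.72, adjusted p = 0.00123). Cell identity was not tested with these lists.

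The genes most like each member over the 14 libraries were found by Pearson correlation of log2(TPM + 1) among tested genes with at least 10 TPM in 2 libraries, a description in which points share groups. For Epcam they were Trpv4 (r = 0.996), Kcnn4 (0.996) and Kcnk1 (0.995), 3 channel genes, all at most 0.32 TPM on average in either lung group. For Alcam they were Mcm5 (0.987), Dnajc9 (0.985) and Dck (0.985), and Mcm5, a replication helicase subunit, had means of 0.52 and 3.97 TPM in lung CD44low and CD44high against 92.8 to 111 TPM in the other groups. For Eng they were Itga1 (0.997), Rspo3 (0.996) and Medag (0.996), with Rspo3, a Wnt amplifier, at a mean of 263 TPM in lung CD44low and 8.23 TPM in lung CD44high. For Thy1 they were Thbs2 (0.9998), Armcx2 (0.999) and Crct1 (0.999). For Cd24a they were Slc38a1 (0.979), Mrps7 (0.972) and Tsen54 (0.970), and for Cd44 Nfkb2 (0.965), Itgb4 (0.959) and Gas8 (0.957). For Prom1 they were Ccl20 (0.977), Rab25 (0.972) and Rnpep (0.952), for Ly6a Il10rb (0.968), Nmnat2 (0.959) and Rangrf (0.943), and for Nt5e, the least matched, Pla2g4a (0.886), Mtpn (0.824) and Cacnb3 (0.812). Among the members themselves, Epcam and Alcam were the most alike (r = 0.951), and Cd24a and Eng the most opposed (r = -0.971).

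Single-cell libraries gave a further view of lung CD44high (lungH), lung CD44low (lungL) and LN CD44high (lymphH) cells, with 1 library each, so that no test of the conditions was possible. Cells with more than 250 genes and under 10% mitochondrial counts numbered 1236 of 3623 barcodes in lungH, 348 of 2808 in lungL and 2562 of 3297 in lymphH. They held 2210623, 2220759 and 5287425 counts, at a median of 557, 4011 and 585 per cell, so that lungL cells were much deeper. No cell profile was identical between libraries, and no doublets were removed here, so that genes seen together in a cell may come from more than 1 cell. Levels are counts per 10000 of a library's kept counts with exact Poisson 95% intervals, which cover counting error only, and, as the chemistry reads the 3′ end, they are compared between libraries and not between genes.

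Cd44 had 4.99 per 10000 in lungH (95% interval 4.69 to 5.29), 8.51 in lungL (8.13 to 8.90) and 4.49 in lymphH (4.31 to 4.67). The level was 1.71-fold higher in the library labelled CD44low than in the one labelled CD44high from lung (95% interval 1.58 to 1.84), and the mean of per-cell values put the CD44high to CD44low ratio at 0.667 rather than 0.586. Cd44 was seen in 26.0% of lungH, 62.9% of lungL and 21.7% of lymphH cells, and after each cell was thinned to 500 counts in 15.7% of 948, 28.7% of 314 and 13.6% of 1903 cells.

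Cd24a had 6.33 per 10000 in lungH, 4.18 in lungL and 8.19 in lymphH. Lung CD44high exceeded lung CD44low by 1.51-fold (95% interval 1.39 to 1.65), in the direction of the bulk data, where the 2 groups lay 4.86 apart on the log2 scale. In thinned cells, Cd24a was seen in 17.5% of lungH, 11.1% of lungL and 25.1% of lymphH cells, against 28.2%, 44.3% and 33.6% before thinning. Cd44 and Cd24a were seen together in 12.9% of lungH, 40.2% of lungL and 13.0% of lymphH cells, and cells with Cd44 were the deeper ones, with medians of 769 against 541 counts in lungH and 10145 against 655 in lungL.

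Epcam had 936 counts in lymphH (1.77 per 10000, 95% interval 1.66 to 1.89), 3 in lungH and 0 in lungL. LymphH was 131-fold higher than lungL with lungL set to a floor of 3 counts (exact lower 95% limit 106). It was 130-fold higher than lungH (95% interval 44.5 to 634). Epcam was seen in 13.2% of lymphH cells, in 2 of 1236 lungH cells (0.162%) and in 0 of 348 lungL cells. For lungL, the floor of 3 cells is 0.862% and the exact upper 95% limit is 1.05% of cells with a count. Both are for counting error only and set no limit on cells that express the gene. Both assays thus had Epcam RNA at or near 0 in the lung lines labelled EpCAMhigh. Prom1 had 11 counts in lymphH and 0 in both lung libraries. Against floors of 3 counts it was 1.53-fold higher than in lungH and 1.54-fold higher than in lungL (exact lower 95% limit 1.05 for each).

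Ly6a and Alcam stood differently in the single-cell and bulk data. Ly6a had 5.58 per 10000 in lungH (95% interval 5.27 to 5.90), 0.437 in lungL (0.354 to 0.533) and 0.0189 in lymphH (10 counts). It was 12.8-fold higher in lung CD44high than lung CD44low (95% interval 10.4 to 15.9), opposite to bulk, where lung CD44low had the higher level. In thinned cells it was seen in 13.8% of lungH, 0.637% of lungL and 0.105% of lymphH cells, against 22.4%, 12.6% and 0.351% before thinning. Alcam had 0.208 per 10000 in lungH, 1.99 in lungL and 1.94 in lymphH, and in thinned cells it was seen in 0.844%, 6.69% and 6.31% of them. It was 9.54-fold higher in lung CD44low than lung CD44high (95% interval 7.03 to 13.2), whereas in bulk both lung groups lay below LN. The bulk lung groups stood in the opposite order without overlap. There, CD44high was higher by 0.73, which did not pass the test (limma, adjusted p = 0.217). LungL and lymphH had a ratio of 1.03 (95% interval 0.915 to 1.15). The labels do not say whether single-cell libraries came from the isolates of the bulk libraries.

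The stromal trio was sparse in single cells. Eng had 49 counts in lungL (0.221 per 10000), 14 in lungH (0.0633) and 2 in lymphH, 3.48-fold higher in lung CD44low than lung CD44high (95% interval 1.89 to 6.83). After thinning it was seen in 3 of 948 lungH cells (0.316%) and 1 of 314 lungL cells (0.318%), too few to compare. Thy1 had 8 counts in 5 lungL cells and 0 in the other 2 libraries, and was seen in 0 of the 314 thinned lungL cells. Against a floor of 3 counts, it was 2.65-fold higher than in lungH (exact lower 95% limit 1.70). As the mean of per-cell values, the lungL level of Thy1 was 0.0151 per 10000 instead of 0.0360, close to the lungH floor of 0.0136, and that of Eng was 0.121, against 0.0433 in lungH. Nt5e had 0.498 per 10000 in lungH (110 counts), 0.302 in lungL (67 counts) and 0.401 in lymphH (212 counts), and its lungH level was 1.65-fold that of lungL (95% interval 1.21 to 2.27), opposite to the bulk order. As the mean of per-cell values, Nt5e had 0.599 in lungH and 0.164 in lungL, a wider gap, and in thinned cells it was seen in 1.58% of lungH, 0.318% of lungL and 1.52% of lymphH cells. Fibroblast markers summed to 29.5 per 10000 in lungL, led by Col1a2 at 14.4, against 0.669 in lungH and 0.151 in lymphH, and Acta2 had 45.6 per 10000 in lungL. Epithelial markers summed to 1.62 in lungL, 4.36 in lungH and 8.96 in lymphH, with Cdh1 and Elf3 at 0 in both lung libraries. Cycling markers summed to 12.9 in lungH, 3.91 in lungL and 14.6 in lymphH, so that lungH was near lymphH, unlike the bulk lung CD44high libraries. Ptprc, which marks blood cells, had 0 counts in all 3.

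**Figure D5:**
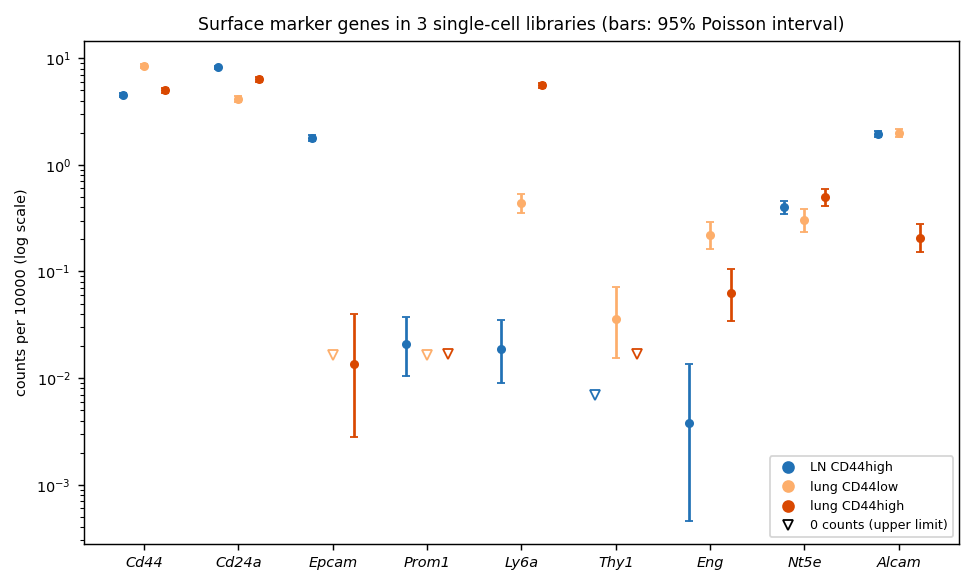
Level of the 9 genes (horizontal axis) in 3 single-cell libraries, as counts per 10000 on a log scale (vertical axis), with exact Poisson 95% intervals. Open triangles mark the upper limit of a library with 0 counts. Ly6a is highest in lung CD44high, at 5.58, and Epcam in LN CD44high, at 1.77.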

How the data were processed

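RNA of cultured MMTV-PyMT cell lines was measured by bulk RNA-seq (14 libraries) and single-cell RNA-seq (3 libraries). For bulk RNA-seq, the authors prepared libraries by an adapted SMART-seq2 method with Nextera XT, mapped them to mm10 with STAR, ran RSEM on GENCODE 21 and deposited TPM values, which keep no depth; read counts of the bulk libraries were not used here. For single cells, the authors used ddSeq with SureCell chemistry, demultiplexed with Ddseeker, quantified with kallisto, and deposited whole-number counts per gene and barcode (stated minimum, 34 M reads). Whether duplicate molecules were collapsed is not stated, so intervals cover counting error only. Gene names came from the row names of a single-cell table (35849 of 55450 identifiers) and otherwise from a reference table, which held all 55450.

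Log2(TPM + 1) of genes with at least 1 TPM in 2 libraries was fitted as 7 group means (7 residual degrees of freedom) with limma 3.58.1 (R 4.3.3, trend in eBayes), and CD44 status over 12 libraries with organ as a term. The procedure was tested on simulated data. Kept cells had more than 250 genes and under 10% of counts in 13 mitochondrial genes. Python 3.11.15, numpy 2.4.6, scipy 1.17.1 and pandas 2.3.3 were used.

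The 9 members, the gene lists and the tests were chosen with earlier results of these data known. Named beside the members are, for each list and lung comparison, up to 2 rises and 2 falls among called genes whose libraries did not overlap (not all are described), and the 3 genes most like each member. Genes added after their values were seen are Gdf2, Bmp10, Entpd1, Bmpr1a, Smad1 and the cell type markers. Alternatives were a pseudocount of 0.1, no filter (31466 genes), at least 5 TPM (11508 genes), median-ratio scaling (8694 genes), the replicate number as a block, only the groups compared, no fold limit and each library left out. For single cells they were cells of over 500 genes, 20% or no limit on mitochondrial counts, all barcodes and the mean of per-cell values.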

Additional observations from a re-analysis of the deposited data

Results flagged for a closer look

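The CD44high minus CD44low difference in lung differed from that in another organ, by limma's interaction contrast, for 4 members, where 3.39% of all genes were called higher and 7.0% lower against LN, and 2.77% and 5.89% against BM. Thy1 and Eng were tested only through lung libraries where they were high, so that nothing is read from their values below. For Cd24a it was higher in lung than in LN by 5.86 and than in BM by 4.77 on the log2 scale. For Eng it was lower in lung, by -3.98 against LN and -4.30 against BM. Thy1 gave -5.51 against both organs, a fitted value that depends on the pseudocount, since every library outside lung CD44low was listed at 0. For Ly6a, the lung difference lay -2.19 from that in BM (standard error 0.53, adjusted p = 0.0189), and the call was lost in 3 of the 14 leave-one-out fits, with -1.92 without the first BM CD44high library, -2.03 without the second lung CD44low library and -2.08 without the first lung CD44high library, the latter pair by the adjusted p alone.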

How the results depend on the processing

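Counts of members called kept within 1.5 times under all alternatives run except within organs, where 3 calls became 5 with a pseudocount of 0.1 and 6 with no fold limit. With each library left out in turn, calls ranged from 20 to 22 against MFP (22 with all libraries), from 6 to 7 for lung against LN and BM (6) and from 6 to 7 for the interactions (7), and stayed at 3 within organs and at 0 across organs and for BM against LN. The single-cell Cd44 ratio of lung CD44high to CD44low was 0.586, and 0.667 as the mean of per-cell values. Cd44 between CD44high and CD44low cells of BM went from -0.20 to 0.0779 with median-ratio scaling and ranged from -0.58 to 0.18 with 1 library left out, and in lung it was 0.00 and ranged from -0.40 to 0.41 with 1 library left out, none of these called. The exact permutation value of Cd44 was -0.26 (p = 0.278) with median-ratio scaling, and -0.44 with p = 0.489 when labels were permuted over all 12 libraries. Scaling moved the median of all genes by up to 0.37 against MFP.

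Replicate numbers are shared by the labels, but replicate differences of the 2 CD44 groups correlated at -0.0890 in LN, 0.0725 in BM and -0.194 in lung. Over all 21 pairs of groups they ranged from -0.194 to 0.168, with 3 above 0.1, so that the samples were taken to share only a number. With the replicate number as a block, 21 members were called against MFP, 3 within organs, 6 for lung against LN and BM and 7 in the interactions, and Nt5e in LN CD44low (adjusted p = 0.0514) was the call lost. With the lung CD44low numbers crossed, chosen after the data were seen, 3 were called within organs. Fits of only the groups compared lost the calls of Ly6a in LN CD44low (adjusted p = 0.0552), Cd44 in BM CD44low (adjusted p = 0.0889) and Nt5e in LN CD44low (adjusted p = 0.297) against MFP, and Nt5e was also lost with no filter (adjusted p = 0.0943). Prom1 in lung against LN and BM was called, at -3.61, with a pseudocount of 0.1. Depth limits the single-cell values of Thy1, Prom1 and Eng, which rest on 0 to 49 counts, and 2 libraries a group limit all bulk tests.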
